A study of Xenopus tropicalis with 10 samples.

Results

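The regenerating tail of *Xenopus tropicalis* tadpoles at 72 hours post-amputation (hpa), the outgrowth stage, was set against the regenerating tail at 24 hpa, the bud stage, across every gene of the deposited table. Both groups came from tadpoles labelled stage 40 whose tails had been amputated, and each was sequenced as 2 libraries, 4 of the 10 libraries of the series. No strain, genotype or drug is named for either group, and the number of tadpoles behind a library is not known here. The other libraries were 2 whole tails removed at the first cut, 2 pieces taken at 0 hpa next to that cut, and 1 library each at 6 and 15 hpa. The whole tails were taken at the start, so a tail at 72 hpa had no uncut tail of its own age beside it, and 2 more days of regeneration and 2 more days of larval development cannot be told apart. Nothing states that libraries of a group came from separate animals. The p-values therefore cover only how far libraries of the same group differ, pooled over all duplicated groups of the series. That spread may be technical.

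An amputated tadpole tail is first covered by a wound epidermis. Progenitor cells of the spinal cord, notochord and muscle then gather under it in a regeneration bud, from which the new axial tissues grow out. Tadpole skin is a mosaic of keratin-rich cells lying over a basal layer fixed to the basement membrane, with ciliated cells, ionocytes and mucus-secreting or serotonin-storing cells set among them. The late larval skin replaces this embryonic mosaic as the tadpole grows, and larval red blood cells replace the first embryonic ones.

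Gene reads numbered 58467586 and 15966579 in the 72 hpa libraries and 27948915 and 30181402 in the 24 hpa libraries, and every value below is in normalised reads, gene reads divided by a size factor for depth. All 4 libraries carried defining markers of tail tissue: muscle (TNNC2, ACTC1), neurons (ELAVL4, SNAP25), notochord and floor plate (NOT, SHH), epidermis (TP63), leukocytes (PTPRC, CSF1R), endothelium (CDH5, TIE1) and pigment cells (DCT). Markers of pancreas, eye and heart (CPA1, NKX2-5 and the loci matched to PRSS1 and CRYAA) had between 0 and 12 reads in any of these libraries. MYH6, a myosin gene named for the heart in mammals, had more, with 696 and 90 reads at 72 hpa and 23 and 10 at 24 hpa. Bulk tissue was measured, so fewer cells of a type and less RNA per cell cannot be told apart. The median difference between the replicates, over all tested genes and in absolute log2 units, was 0.389 at 72 hpa and 0.301 at 24 hpa. Muscle transcripts divided the replicates of both groups: 51 genes of sarcomere and contraction took 0.421% and 1.97% of gene reads at 72 hpa, and 1.36% and 0.556% at 24 hpa.

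Few single genes passed a test across the whole table. With limma on log2(normalised reads + 1) and Benjamini-Hochberg adjustment at 0.05, 7 of 17896 genes rose (0.0391%) and 6 fell (0.0335%), 0.0726% in either direction. At an unadjusted p under 0.05, 946 genes were higher (5.29%) and 967 lower (5.40%), and the libraries of the groups did not overlap for 3821 genes that were higher (21.4%) and 3801 that were lower (21.2%). The count models, run on the whole reads recovered from the values, bracketed these numbers: edgeR's quasi-likelihood test called 1 gene higher and 1 lower (0.00559% each), and DESeq2 called 256 higher and 283 lower of the 16855 genes to which it gave an adjusted p (1.52% and 1.68%). The edgeR calls were LOC101732051 and trpv4l.3. All 13 genes called by limma are flagged as changed in the authors' deposited table, which flags 5089 of 26550 genes and does not state the contrast behind the flag. The flag comes with the same libraries, so it is no independent support. Leaving out 72 hpa replicate 1 gave 12 genes higher and 48 lower, and leaving out 72 hpa replicate 2 gave 0 higher and 4 lower. Without 24 hpa replicate 1 there were 4 higher and 1 lower, and without 24 hpa replicate 2 there were 3 and 17. Set against the whole tails in the same fit, 72 hpa had 825 genes called higher and 838 lower (4.61% and 4.68%), and 24 hpa had 142 higher and 56 lower (0.793% and 0.313%); these comparisons share the whole tails. The calls of 72 hpa against 24 hpa also varied with libraries of other groups. Leaving out 1 library of 0 hpa or of the whole tails lowered both counts each time, least without whole tail replicate 1. The 8 libraries of the duplicated groups gave 9 higher and 8 lower.

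**Figure D1:**
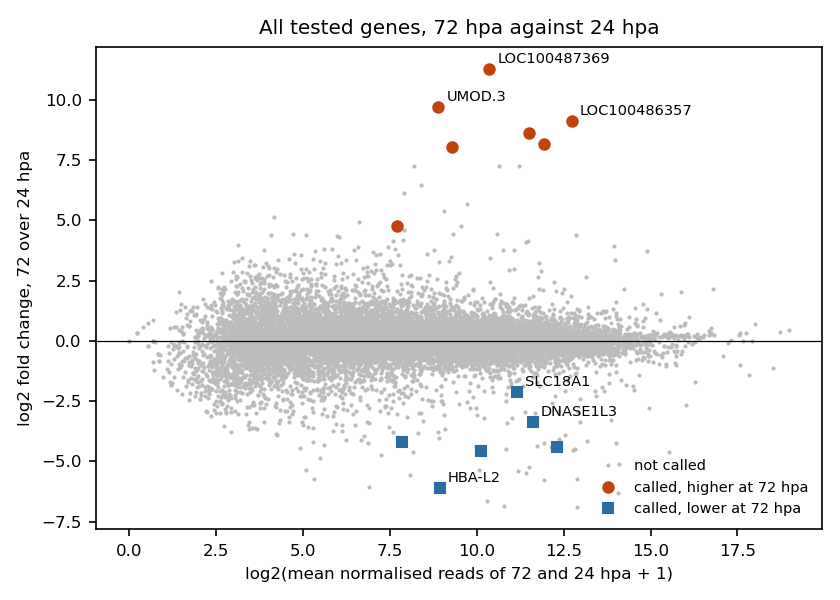
Each point is a tested gene, with the log2 of its mean normalised reads + 1 over the 4 libraries on the horizontal axis and its log2 fold change, 72 hpa over 24 hpa, on the vertical axis. The 7 genes that rose (circles) have log2 fold changes between 4.78 and 11.29, and the 6 that fell (squares) have log2 fold changes between -2.13 and -6.11.

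The genes that rose were close to silent in the bud and abundant at outgrowth. LOC100487369, a protein-coding locus on chromosome 7 with no named product in the table, had 1837 and 3393 normalised reads at 72 hpa and 0 in both 24 hpa libraries. Against a floor of 3 reads per 24 hpa library, its mean at 72 hpa was at least 679-fold higher (limma log2 fold change 11.29, SE 0.86, adjusted p = 0.0143). The count models did not call LOC100487369, with an adjusted p of 0.104 in DESeq2 and 0.0555 in edgeR. UMOD.3, a copy related by name to uromodulin, a filament-forming secreted glycoprotein, had 481 and 1412 at 72 hpa and 0 and 0 at 24 hpa. Its mean at 72 hpa was at least 246-fold above the same floor (limma log2 fold change 9.69, adjusted p = 0.0437). LOC100487369 and UMOD.3 were the 2 genes of the table with at least 100 normalised reads in both 72 hpa libraries and 0 in both 24 hpa libraries. No gene showed the reverse.

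A run of neighbours on chromosome 7 was high together. LOC100486357, next to LOC100487369 in the RefSeq gene order of assembly UCB_Xtro_10.0, had 8639 and 18439 normalised reads at 72 hpa and 61.5 and 7.2 at 24 hpa (limma log2 fold change 9.12, adjusted p = 0.0437). LOC101731845, a few genes away on the other side, had 3306 and 8195 at 72 hpa and 23.2 and 6.0 at 24 hpa (8.64, adjusted p = 0.0246). Between them stands LOC100486969, with 4474 and 4914 at 72 hpa against 79.3 and 10.8 at 24 hpa, which just missed the threshold (7.25, adjusted p = 0.0565). RefSeq lists 6 protein-coding genes over this stretch, of which 4 are in the table and 3 were called. The nearest table genes outside it behaved otherwise: LOC101731963 had 11.1 and 0 at 72 hpa and 2.73 and 18.0 at 24 hpa, and LOC100486257 had no read in any library. The 6 hpa library held 38.6 normalised reads of LOC101731845, 21.3 of LOC100486969 and 14.5 of LOC100486357, more than the 15 hpa library, where none of the 3 reached 1. Reads shared between near-identical copies could be split among such neighbours, and the authors' way of counting them is not known here.

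The remaining genes that rose have no symbol. LOC101732051 had 9106 and 6316 normalised reads at 72 hpa and 43.8 and 14.4 at 24 hpa, with both 72 hpa libraries far above both 24 hpa libraries (limma log2 fold change 8.17, SE 0.65, adjusted p = 0.0143; edgeR adjusted p = 0.0277). XETROV90017494M.G had 999.8 and 1507 at 72 hpa against 5.47 and 2.40 at 24 hpa, and XETROV90005694M.G had 392 and 408 at 72 hpa against 19.1 and 9.61 at 24 hpa. Their log2 fold changes were 8.03 and 4.78, with limma adjusted p-values of 0.0369 and 0.0386. LOC101731617, at 609 and 542 at 72 hpa and 5.47 and 1.2 at 24 hpa, stood just outside the threshold (adjusted p = 0.0551).

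**Figure D2:**
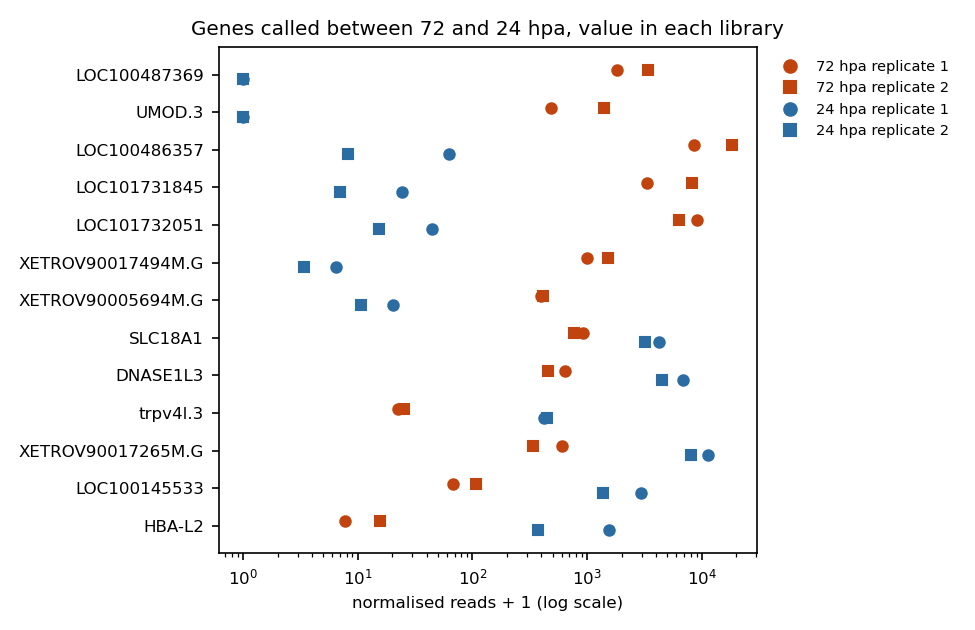
Normalised reads + 1 (log scale) of the 13 called genes in each library, with 72 hpa in orange above 24 hpa in blue and replicates 1 and 2 as circles and squares. The groups do not overlap for any of the 13 genes, and LOC100487369 and UMOD.3 lie at 0 reads in both 24 hpa libraries.

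Of the genes that fell, DNASE1L3 had 24 hpa values that overlapped the whole tails, and the others lay lower at 24 hpa than in the whole tails. The smallest p belonged to LOC100494341, which RefSeq names trpv4l.3, a copy related by name to the osmotically gated cation channel TRPV4. It had 21.6 and 24.3 normalised reads at 72 hpa, 418 and 449 at 24 hpa, and 965 and 790 in the whole tails. The 4 regenerating libraries split cleanly, with 18.2-fold less at 72 hpa (limma log2 fold change -4.18, SE 0.26, adjusted p = 0.00781; edgeR adjusted p = 0.0132).

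SLC18A1, the vesicular transporter that loads monoamines such as serotonin into secretory granules, had 923 and 763 normalised reads at 72 hpa, 4227 and 3178 at 24 hpa and 7949 and 7247 in the whole tails. Its fold change on the log2 scale was -2.13 (SE 0.20, limma adjusted p = 0.0246). DNASE1L3, a secreted endonuclease that degrades DNA in chromatin, had 642 and 452 at 72 hpa, 6847 and 4514 at 24 hpa and 4841 and 2746 in the whole tails (log2 fold change -3.37, adjusted p = 0.0386). Its 72 hpa libraries lay below both other groups.

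HBA-L2, an alpha-type globin copy, had 6.80 and 14.6 normalised reads at 72 hpa and 1551 and 373 at 24 hpa, the replicates at 24 hpa differing more than 4-fold (limma log2 fold change -6.11, adjusted p = 0.0386). LOC100145533 had 66.2 and 107 at 72 hpa, 2950 and 1362 at 24 hpa and 10618 and 5506 in the whole tails (-4.56, adjusted p = 0.0386). XETROV90017265M.G had 607 and 338 at 72 hpa, 11417 and 8081 at 24 hpa and 78695 and 46810 in the whole tails (-4.40, adjusted p = 0.0352). Just outside the threshold, FUCOLECTIN, a fucose-binding lectin by name, had 17.3 and 17.0 at 72 hpa and 4217 and 784 at 24 hpa (-6.65, adjusted p = 0.0501), and CIDEA, a lipid-droplet protein, had 981 and 977 against 2920 and 3127 (-1.62, adjusted p = 0.0501).

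None of the tested members of 39 gene lists passed the adjusted threshold in limma, nor in edgeR. The lists below are therefore described by members with an unadjusted limma p under 0.05, read against 5.29% of all genes higher and 5.40% lower. DESeq2's calls are read against 1.52% of its genes higher and 1.68% lower. The median log2 fold change of a list is read against a median of -0.01 over all tested genes.

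**Figure D3:**
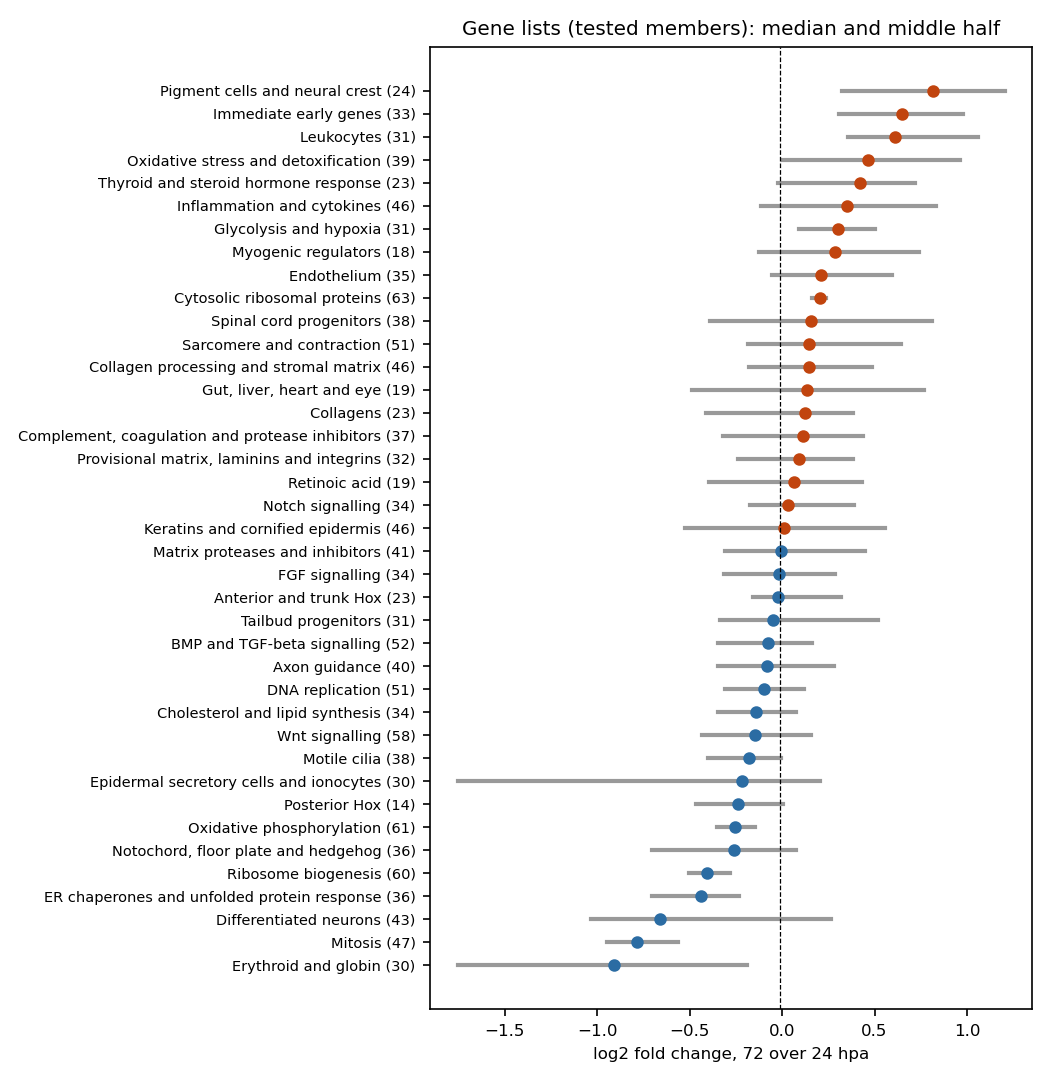
Median log2 fold change, 72 hpa over 24 hpa, of the tested members of each list (point), with the interquartile range of the members (bar); the number of tested members is in brackets and the dashed line is the median of all tested genes, -0.01. Pigment cells and neural crest (0.81), immediate early genes (0.65) and leukocytes (0.61) stand highest, and erythroid and globin genes (-0.91), mitosis (-0.78) and differentiated neurons (-0.66) stand lowest.

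The epidermis showed values in opposite directions for different keratins and cell types, with a list median of 0.01 over 46 tested keratin and cornification genes. Of these, 6 were higher and 7 lower at an unadjusted p under 0.05, and DESeq2 called 2 higher and 6 lower; without 72 hpa replicate 1 there were 1 higher and 13 lower, and without either 24 hpa library 3 higher and 6 lower. KRT18L, a type I keratin of the KRT18 kind, had 540 and 554 normalised reads at 72 hpa and 3316 and 2843 at 24 hpa (limma log2 fold change -2.49, adjusted p = 0.112); the whole tails had 72.3 and 174, so both stages lay above the uncut tail. LOC549413, named krt12.3 in RefSeq, had 9641 and 6146 at 72 hpa, 74123 and 37606 at 24 hpa and 243776 and 165749 in the whole tails. The embryonic epidermal keratin XK81A1 followed the same order, with 696 and 688 at 72 hpa, 7736 and 3884 at 24 hpa and 100199 and 34879 in the whole tails.

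The simple-epithelial pair KRT8 and KRT18, which polymerise with each other, had log2 fold changes of -0.85 and -0.81. KRT16 had 166006 and 94100 normalised reads at 72 hpa and 277558 and 399707 at 24 hpa (limma log2 fold change -1.41, adjusted p = 0.285), and KRT5.7 had 318724 and 165892 against 512579 and 497168 (-1.13, adjusted p = 0.378). Another KRT5 copy, KRT5.2, ran the other way with 206327 and 166505 at 72 hpa and 43139 and 40558 at 24 hpa (2.15, adjusted p = 0.317). The groups did not overlap for any of these keratins, mostly picked after their values were seen. Over the 46 tested genes of the list, 13 were higher and 11 lower without overlap, against 21.4% and 21.2% of all tested genes. UPK3A, a uroplakin known from the bladder lining of mammals, was also apart at 24405 and 21414 against 9211 and 11114.

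Genes of basal cells and of their anchorage to the basement membrane, mostly picked after their values were seen, were apart between the stages in some cases and overlapped in others. COL17A1, the transmembrane collagen of the hemidesmosome, had 113945 and 80743 normalised reads at 72 hpa and 21225 and 26179 at 24 hpa (limma log2 fold change 2.02, adjusted p = 0.148). DST, which encodes a plakin that ties keratin filaments to that junction, had 29361 and 20573 against 7681 and 8409 (1.61, adjusted p = 0.112), and KRT15-LIKE, a keratin of basal cells by name, had 71119 and 56022 against 18275 and 14724 (1.94, adjusted p = 0.131). ITGB4-LIKE, an integrin chain of the junction, differed less, with 25970 and 18062 against 11684 and 16603 (0.64, adjusted p = 0.466). ITGA6, its integrin partner, overlapped at 11144 and 7804 against 7449 and 8931, as did the plakin PLEC at 64087 and 45673 against 44224 and 52602 and the basal-cell transcription factor TP63 at 14002 and 8467 against 9977 and 12385. FOXN1, a transcription factor of skin and thymus epithelium, had 42.0 and 55.9 at 72 hpa and 1.37 and 1.2 at 24 hpa (4.44, adjusted p = 0.148).

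Transcripts of the secretory cells and ionocytes of the embryonic skin held more members lower than higher at 72 hpa. Of 30 tested, 18 had lower and 12 higher fitted values, 12 were lower and 2 higher at an unadjusted p under 0.05, and DESeq2 called 9 lower and 1 higher; the list median was -0.21, and between -0.42 and -0.61 when any 1 of the 4 libraries was left out. ITLN1, a secreted lectin of mucous cells, had 2319 and 72.9 normalised reads at 72 hpa, 39345 and 26806 at 24 hpa and 115788 and 119915 in the whole tails (limma log2 fold change -6.29, adjusted p = 0.177). Its neighbour in name, ITLN2, had 1410 and 51.0 at 72 hpa and 16071 and 12858 at 24 hpa (-5.73, adjusted p = 0.192). Both lectins were over 25-fold apart between the 72 hpa replicates and still did not overlap 24 hpa.

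Some regulators and other genes of these cells, mostly picked after their values were seen, were lower at 72 hpa without passing the test. SPDEF, a goblet-cell transcription factor, had 24.1 and 31.6 normalised reads at 72 hpa and 537 and 97.3 at 24 hpa (limma log2 fold change -3.01, adjusted p = 0.22). FOXA1, a forkhead factor of the small secretory cells, had 537 and 513 against 1802 and 1111 (-1.43, adjusted p = 0.151), and DDC, the decarboxylase that makes serotonin and dopamine, had 147 and 153 against 2210 and 381 (-2.60, adjusted p = 0.259). FOXI1, the master regulator of ionocytes, had 479 and 287 against 1984 and 795 (-1.76, adjusted p = 0.311). The anion exchanger SLC26A4, expressed in ionocytes, had 8920 and 4418 against 27552 and 15959. An exception was LOC100494873, named otop1.2 in RefSeq after the otopetrin proton channels, with 437 and 493 at 72 hpa and 19.1 and 1.2 at 24 hpa (6.13, adjusted p = 0.148).

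**Figure D4:**
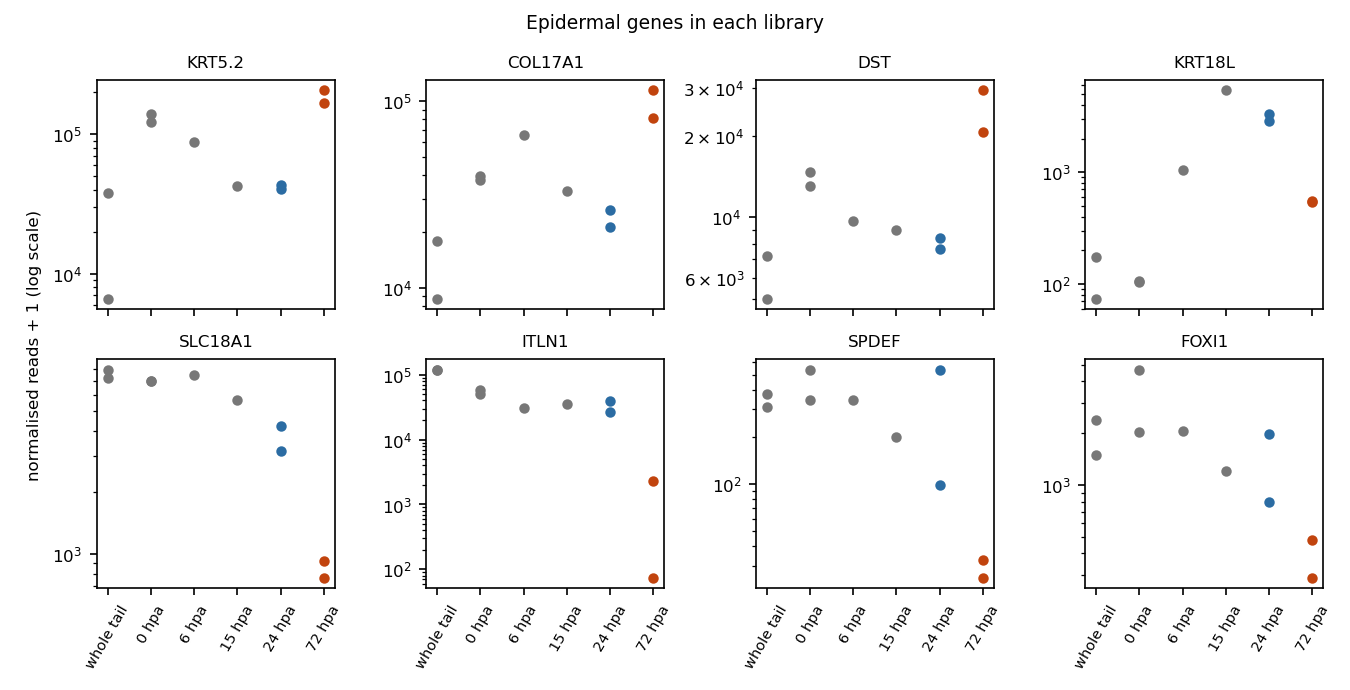
Normalised reads + 1 (log scale) of 8 epidermal genes in each library, from the whole tail through 0, 6, 15 and 24 hpa (blue) to 72 hpa (orange). KRT5.2, COL17A1 and DST have both 72 hpa libraries above both 24 hpa libraries; KRT18L, SLC18A1, ITLN1, SPDEF and FOXI1 have both below.

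Globin copies differed in the size of their change, with 12 fitted values lower at 72 hpa and 1 higher. Globins are the oxygen carriers of red cells, and frogs use different copies in embryonic, larval and adult blood. Of 13 globin genes in the table, a group drawn up after their values were seen, 9 were lower and 0 higher at an unadjusted p under 0.05, DESeq2 called 9 lower, and the median log2 fold change was -3.41. HBZ, a zeta-type embryonic copy by name, had 173 and 423 normalised reads at 72 hpa and 9806 and 3202 at 24 hpa (limma log2 fold change -4.37, adjusted p = 0.0857), and HBE1, an epsilon-type copy by name, had 281 and 1609 against 15431 and 6620 (-3.91, adjusted p = 0.177). HBA3 differed less, with 20285 and 57733 at 72 hpa and 83340 and 57271 at 24 hpa, values that overlap (-1.01, adjusted p = 0.653). HBD also differed less, with 16841 and 38249 against 58400 and 41796, values that do not overlap (-0.96, adjusted p = 0.64). HBG2 had 13.6 and 267 at 72 hpa against 58.8 and 14.4.

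Red-cell genes other than globins included lower values of several sizes, in genes picked after their values were seen. SLC4A1, the anion exchanger of red cells and of some ionocytes, had 403 and 938 normalised reads at 72 hpa and 3936 and 2000.4 at 24 hpa (limma log2 fold change -2.19, adjusted p = 0.253). ALAS2, the first enzyme of heme synthesis in red cells, had 1685 and 2486 at 72 hpa and 3940 and 3205 at 24 hpa (-0.80, adjusted p = 0.692). The erythroid transcription factors TAL1 and GFI1B had 67.4 and 117 against 335 and 275, and 40.2 and 36.5 against 194 and 84.1, with adjusted p-values of 0.244 and 0.243. GATA1, their partner in red-cell differentiation, had 125 and 153 against 399 and 262 (adjusted p = 0.487). The list of 30 tested erythroid and globin genes, which shares members with the globin group, had 9 members lower and 0 higher at an unadjusted p under 0.05, 9 lower by DESeq2, and a median of -0.91, or -0.50 without 72 hpa replicate 1 and -1.46 without 72 hpa replicate 2, when 14 were lower. Nearly identical globin copies could share reads, so single copies are uncertain.

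Cell-division genes were lower at 72 hpa while replication genes differed less. Of 47 tested mitosis genes, 34 were lower at an unadjusted p under 0.05 (72.3%) and 0 were higher. The groups did not overlap for 41, all lower at 72 hpa, against 21.2% of all tested genes. DESeq2 called 11, also lower, against 1.68% of its genes. The list median was -0.78 and lay between -0.52 and -1.0 when any 1 of the 4 libraries was left out; the count of lower members was 21 without 72 hpa replicate 2 or 24 hpa replicate 1. Of 51 DNA replication genes, 1 was lower and 0 were higher at an unadjusted p under 0.05, DESeq2 called 0, and the median was -0.10. Their fitted values were lower for 33 and higher for 18. The groups did not overlap for 18 that were lower and 9 that were higher, against 21.2% and 21.4% of all tested genes. Relative to the whole tails, the mitosis median was -1.02 at 72 hpa and -0.27 at 24 hpa; both contrasts use the same whole tails.

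ECT2, the exchange factor that positions the cleavage furrow, had 683 and 559 normalised reads at 72 hpa and 1604 and 1515 at 24 hpa (limma log2 fold change -1.33, adjusted p = 0.105). The spindle motor KIF11 had 3382 and 2321 against 6403 and 6532 (-1.21, adjusted p = 0.151), and UBE2C, which feeds mitotic proteins to the proteasome, had 1558 and 1487 against 3039 and 2660 (-0.90, adjusted p = 0.151). The kinases PLK1 and AURKB, which drive spindle assembly and chromosome separation, had 2953 and 2071 against 5928 and 4601, and 2150 and 1594 against 4014 and 3261. CCNA2, a cyclin of S phase and mitotic entry, had 1331 and 1123 against 2941 and 2197. Replicate 2 was the lower of the 72 hpa libraries for each of these genes, and neither 72 hpa library reached a 24 hpa value.

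Protein-making lists differed in their share of members lower at an unadjusted p under 0.05. It was 44.4% for the endoplasmic reticulum list, 8.33% for ribosome biogenesis and 0 for cytosolic ribosomal proteins, against 5.40% of all genes. Of 36 tested chaperones and unfolded-protein-response genes of the endoplasmic reticulum, where secreted proteins are folded, 16 were lower and 0 higher at an unadjusted p under 0.05, DESeq2 called 4 lower, and the median was -0.44. PDIA4, a disulfide isomerase, had 4188 and 3920 normalised reads at 72 hpa and 9875 and 7897 at 24 hpa (limma log2 fold change -1.12, adjusted p = 0.215). The chaperones CALR, HSP90B1 and HSPA5 had 35478 and 39257 against 71622 and 67361, 24602 and 34260 against 65080 and 53682, and 23300 and 37425 against 69908 and 46523, with no overlap in any of the 3. Without 72 hpa replicate 1 or 24 hpa replicate 1, 4 members of the list were lower. Ribosome-biogenesis genes, which process ribosomal RNA, had 5 of 60 members lower and 1 higher at an unadjusted p under 0.05, and DESeq2 called 0. Their median was -0.40, with 54 fitted values lower and 6 higher. The groups did not overlap for 32 that were lower and 3 that were higher, against 21.2% and 21.4% of all tested genes. The median lay between -0.17 and -0.60 when any 1 of the 4 libraries was left out. Of 63 ribosomal protein genes, with a median of 0.21, 62 had fitted values higher at 72 hpa, against 48.8% of all genes. The groups did not overlap for 38 of the 63, all higher at 72 hpa. However, 0 reached an unadjusted p under 0.05 and DESeq2 called 0. Oxidative phosphorylation genes turned with a single library: their median was -0.25 over 61 genes and 0.08 without 72 hpa replicate 1.

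Most neuronal transcripts were lower at 72 hpa than at 24 hpa, with 30 fitted values lower and 13 higher. The groups did not overlap for 24 that were lower and 5 that were higher, against 21.2% and 21.4% of all tested genes. Relative to the whole tails, the list median was -1.88 at 72 hpa and -1.10 at 24 hpa, from contrasts that share the whole tails. Of 43 tested genes of differentiated neurons, 16 were lower and 1 higher at an unadjusted p under 0.05, DESeq2 called 2 lower, and the median was -0.66. The synaptic vesicle protein SYP had 324 and 318 normalised reads at 72 hpa, 635 and 502 at 24 hpa and 1495 and 1628 in the whole tails (limma log2 fold change -0.81, adjusted p = 0.225). INA, a neurofilament subunit, had 215 and 297 against 505 and 598, and SNAP25, which fuses synaptic vesicles with the membrane, had 306 and 272 against 568 and 450. The count of lower members was 6 without 72 hpa replicate 2, 7 without 24 hpa replicate 1 and 8 without 24 hpa replicate 2. SLC18A3, the acetylcholine transporter of motor neurons, had 79.8 and 46.2 at 72 hpa and 103 and 96.1 at 24 hpa, while MNX1, a motor neuron homeobox gene, overlapped at 27.2 and 36.5 against 21.9 and 33.6. Of 38 spinal cord progenitor genes 2 were higher and 1 lower, with a median of 0.16; SOX2, a factor that keeps neural cells as progenitors, had 1486 and 1220 at 72 hpa and 1020 and 732 at 24 hpa (0.64, adjusted p = 0.566).

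In the notochord, floor plate and hedgehog list, 8 of 36 tested genes were lower and 2 higher at an unadjusted p under 0.05, DESeq2 called 5 lower, and the median was -0.26; 5 were lower without 72 hpa replicate 2. NOT, a homeobox factor needed to form the notochord, had 700 and 797 normalised reads at 72 hpa, 1685 and 1741 at 24 hpa and 685 and 689 in the whole tails (limma log2 fold change -1.20, adjusted p = 0.126), so that 72 hpa lay near the uncut tail. SHH, the signal secreted by notochord and floor plate, had 693 and 569 at 72 hpa and 1139 and 877 at 24 hpa (-0.67, adjusted p = 0.323). COL2A1, the main collagen of the notochord sheath and of cartilage, overlapped between the stages, at 104829 and 78826 against 94780 and 73255.

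Genes of the bud itself differed from one another. FN1, the fibronectin of provisional matrix, had 120608 and 138434 normalised reads at 72 hpa, 304219 and 222884 at 24 hpa and 46594 and 35032 in the whole tails (limma log2 fold change -1.01, adjusted p = 0.279). KIRREL2, a cell-adhesion protein of the immunoglobulin family, had 526 and 503 at 72 hpa, 2887 and 1717 at 24 hpa and 398 and 309 in the whole tails (-2.11, adjusted p = 0.0857), so both were highest at 24 hpa of these 3 groups. FGF20, a growth factor of the bud, overlapped between stages at 337 and 447 against 390 and 597, and both stages lay above the whole tails at 106 and 157. The tailbud progenitor list had a median of -0.05 with 1 of 31 lower and 0 higher at an unadjusted p under 0.05, and the FGF list had 0 of 34 in either direction. The Wnt list had 5 of 58 lower and 2 higher, and that of BMP and TGF-beta 5 of 52 lower and 0 higher. With 72 hpa replicate 2 left out, 0 Wnt and 1 BMP or TGF-beta members were lower, and with either 24 hpa library left out, 2 or 3. With 72 hpa replicate 1 left out, 14 Wnt members were lower. MSGN1, a factor of presomitic mesoderm, had 56.3 and 19.4 at 72 hpa and 0 and 31.2 at 24 hpa, values that overlap, and HOXC13, the most posterior Hox gene of its cluster, had 1605 and 1332 against 684 and 1831. DESeq2 called 0 members of the tailbud, FGF, Wnt and BMP lists.

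Most leukocyte genes were higher at 72 hpa than at 24 hpa, with 29 fitted values higher and 2 lower. Relative to the whole tails, the list median was 2.24 and 2.12 in the 72 hpa libraries. It was 2.42 in the single 15 hpa library, above both of these. Of 31 tested members, 13 were higher and 0 lower at an unadjusted p under 0.05 (41.9%), DESeq2 called 5 higher, and the median was 0.61, between 0.60 and 0.88 when any 1 of the 4 libraries was left out; the count of higher members was then 6 to 12, 6 without 24 hpa replicate 1 and 7 without 72 hpa replicate 1 or 72 hpa replicate 2. CSF1R, the growth-factor receptor of macrophages, had 3966 and 4144 normalised reads at 72 hpa, 2074 and 2317 at 24 hpa and 940 and 913 in the whole tails (limma log2 fold change 0.89, adjusted p = 0.151). PTPRC, the CD45 phosphatase of all leukocytes, had 1736 and 1329 against 569 and 869 (1.11, adjusted p = 0.248). CD74, the chaperone of MHC class II in antigen-presenting cells, had 182 and 221 against 24.6 and 36.0 (2.71, adjusted p = 0.195).

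The T-cell genes of the list, picked out after their values were seen, had low values earlier. LCK, the kinase of the T-cell receptor, had 63.7 and 58.3 normalised reads at 72 hpa, 4.10 and 13.2 at 24 hpa and 12.1 and 5.43 in the whole tails (limma log2 fold change 2.86, adjusted p = 0.397). CD3E, a chain of that receptor, had 116 and 80.2 at 72 hpa, 26.0 and 9.61 at 24 hpa and 0.93 and 0 in the whole tails (2.53, adjusted p = 0.391). IL1B, an inflammatory cytokine, had 1470 and 5514 at 72 hpa and 239 and 561 at 24 hpa (2.95, adjusted p = 0.195), while CXCL14, a chemokine made by epithelia, had 1489 and 527 against 3689 and 2422. The list of inflammation and cytokines had 3 of 46 members higher and 2 lower, DESeq2 called 3 and 1, and 13 were higher without 72 hpa replicate 1.

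The wound proteases differed without a common direction. The list of matrix proteases and inhibitors had 4 of 41 higher, 3 lower and a median of -0.01. Its log2 fold changes ran from -2.56 to 2.67. MMP9 and MMP7, named here, were both higher, and MMP9 had 11727 normalised reads in the single 15 hpa library. MMP9, a gelatinase of wounds and leukocytes, had 11022 and 7658 normalised reads at 72 hpa, 2327 and 3796 at 24 hpa and 631 and 593 in the whole tails (limma log2 fold change 1.63, adjusted p = 0.148). MMP7, a matrilysin of epithelia, had 8391 and 5274 against 2371 and 3046 (1.31, adjusted p = 0.17).

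Immediate early genes encode transcription factors switched on within minutes of a stimulus. Their median was 0.65; 9 of 33 were higher and 0 lower at an unadjusted p under 0.05 and 3 called higher by DESeq2. EGR1 had 5917 and 8455 normalised reads at 72 hpa, 3643 and 3560 at 24 hpa and 6709 and 8409 in the whole tails (limma log2 fold change 0.97, adjusted p = 0.195). KLF2, a factor of endothelium exposed to flow, had 651 and 1609 against 160 and 265 (2.31, adjusted p = 0.19), and KLF6 had 7214 and 8927 against 3990 and 4566. Replicate 2 was the higher 72 hpa library for each of the 3, and the list median was 0.28 without it and 1.06 without replicate 1. The count of higher members was then 3 and 16, and it was 4 without 24 hpa replicate 1. Such genes can respond to the handling of tissue, and the part of handling was not tested.

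Detoxifying enzymes, with a median of 0.46, had 8 of 39 members higher and 2 lower at an unadjusted p under 0.05 and 5 called higher by DESeq2. GSTO1, a glutathione transferase, had 1486 and 1201 normalised reads at 72 hpa and 388 and 503 at 24 hpa (limma log2 fold change 1.59, adjusted p = 0.112). PRDX5 and TXN, which reduce peroxides and protein disulfides, had 6004 and 26471 against 1931 and 2092, and 2104 and 10936 against 1127 and 1078. Their 72 hpa replicates were over 4-fold apart, and without 72 hpa replicate 2 the list had 2 members higher, against 12 without 72 hpa replicate 1 and 4 or 5 without a 24 hpa library.

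Most pigment and neural crest genes were higher at 72 hpa, with 20 fitted values higher and 4 lower. The list median at 72 hpa lay nearer to the whole tails than that at 24 hpa, at -0.11 against -1. Of 24 tested members, 8 were higher and 0 lower at an unadjusted p under 0.05, DESeq2 called 1 higher, and the median was 0.81; the count was 3 without 24 hpa replicate 2, 4 without 72 hpa replicate 2 and 5 without 72 hpa replicate 1. TFAP2E, a transcription factor of neural crest and melanophores, had 391 and 515 normalised reads at 72 hpa, 133 and 60.04 at 24 hpa and 313 and 216 in the whole tails (limma log2 fold change 2.32, adjusted p = 0.168). TYR, the enzyme that starts melanin synthesis, had 940 and 885 at 72 hpa, 498 and 249 at 24 hpa and 2181 and 1403 in the whole tails (1.37, adjusted p = 0.316). TYRP1, which acts after TYR, had 2507 and 3050 against 1310 and 677, and SLC45A2, a melanosome transporter, had 367 and 566 against 217 and 113. DCT, the pigment cell marker named above, overlapped between the stages, at 590 and 639 against 799 and 253.

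**Figure D5:**
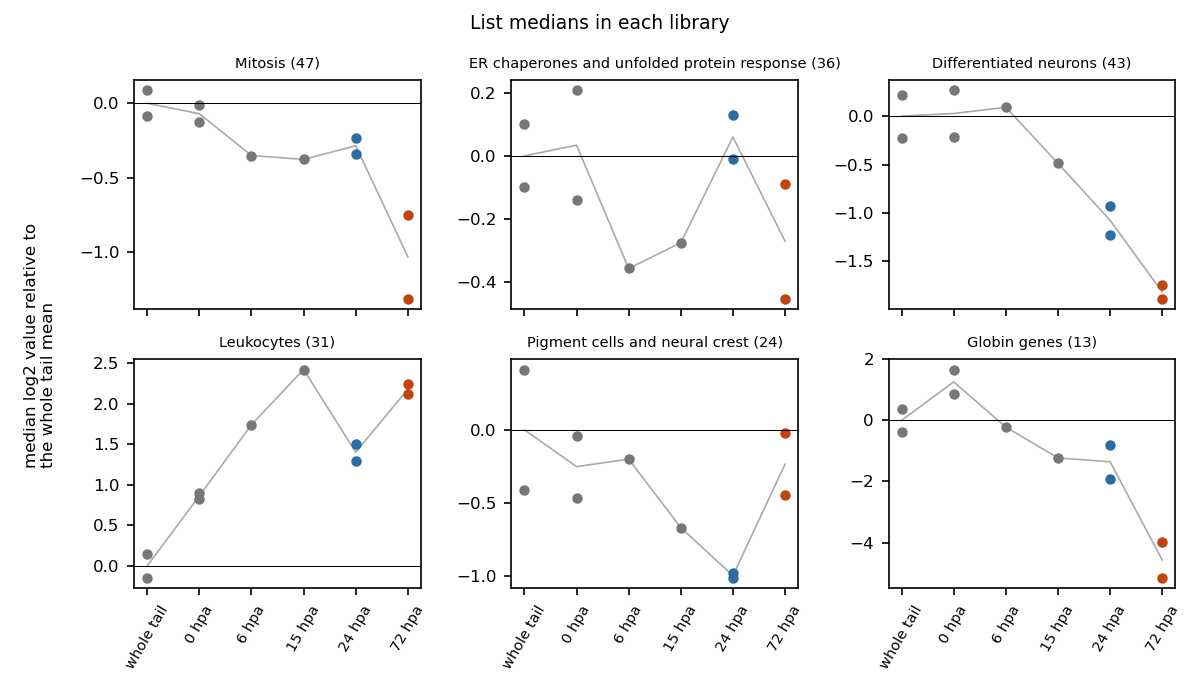
For 6 lists, the median over members of log2(normalised reads + 1) relative to the whole tail mean, in each library; 24 hpa is blue, 72 hpa orange, and the line joins group means. The mitosis median is -0.75 and -1.31 at 72 hpa against -0.23 and -0.34 at 24 hpa, and the globin median -5.16 and -3.98 against -0.80 and -1.91.

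Muscle could not be placed relative to 24 hpa at this spread. The median of 51 sarcomere genes was 0.15, but 1.19 without 72 hpa replicate 1 and -0.89 without 72 hpa replicate 2, with 3 members higher and 0 lower at an unadjusted p under 0.05 and 1 called higher by DESeq2. TNNC2, the calcium sensor of fast fibres, had 3425 and 25108 normalised reads at 72 hpa and 26881 and 7381 at 24 hpa, and MYOD1, the regulator that commits cells to muscle, had 64.9 and 391 against 119 and 51.6. Without overlap between the groups, 4 sarcomere genes were higher and 0 lower, against 21.4% and 21.2% of all tested genes. MYH6 and MYH7, myosin heavy chains named for the heart in mammals, did not overlap. MYH6 had 430 and 219 at 72 hpa and 31.5 and 12.01 at 24 hpa. MYH7 had 47.6 and 46.2 against 12.3 and 14.4, from few reads (77 and 19 against 9 and 12). The limma log2 fold changes of MYH6 and MYH7 were 3.91 and 1.74, with adjusted p-values of 0.172 and 0.343.

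The other lists lay near the background share, or held few members past it. Endothelial genes had 3 of 35 higher and 0 lower at an unadjusted p under 0.05, with 1 called higher by DESeq2; EDN1, the vasoconstrictor endothelin, had 1496 and 1422 normalised reads at 72 hpa and 506 and 657 at 24 hpa (limma log2 fold change 1.34, adjusted p = 0.181). Collagens had 2 of 23 higher and 1 lower, led by COL17A1. In the list of collagen processing and stromal matrix, 4 of 46 were higher and 2 lower; SOX9, which activates cartilage genes, had 1102 and 1256 at 72 hpa and 629 and 648 at 24 hpa (0.88, adjusted p = 0.169). Provisional matrix, laminins and integrins had 4 of 32 higher and 3 lower; TNN, a tenascin glycoprotein of the matrix, had 7346 and 8781 at 72 hpa and 2254 and 1611 at 24 hpa (2.07, adjusted p = 0.164). Among genes of glycolysis and hypoxia 3 of 31 were higher and 1 lower, the lower one being LDHB, a lactate dehydrogenase subunit, at 6157 and 11367 against 55025 and 21071 (-2.02, adjusted p = 0.25). Motile cilia genes had 3 of 38 lower and 0 higher, and their medians relative to the whole tails were -1.34 at 72 hpa and -1.10 at 24 hpa. By library these overlapped, at -1.16 and -1.42 at 72 hpa and -0.62 and -1.55 at 24 hpa. The list median of 72 hpa over 24 hpa, -0.18, was 0.14 without 24 hpa replicate 1 and -0.70 without 24 hpa replicate 2. Retinoic acid genes had 2 of 19 higher and 1 lower, the lower one being STRA6, the membrane receptor for retinol uptake, at 40.8 and 4.86 against 325 and 80.5 (-3.38, adjusted p = 0.298). Hox genes of the trunk had 1 of 23 higher and 0 lower, and posterior Hox genes 0 of 14 higher and 1 lower.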

How the data were processed

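Total tail RNA of stage 40 *X. tropicalis* tadpoles was made into Illumina TruSeq libraries, per the labels' protocols. DESeq2, HTSeq, TopHat2 (2.0.13), Trim Galore (0.3.3), R (3.2.0) and SAMtools (1.1) are named, with no role, in the submitters' processing notes. Not given in the sources used here are the genome build, the annotation and the handling of reads shared between copies. The authors deposited a normalised signal for 26550 genes in 10 libraries, with their own flag of change. In each library 100% of the deposited signal values were whole multiples of what 1 read is worth (tolerance 0.01), and size factors of the median-of-ratios kind, computed from the recovered reads, matched these steps to a relative difference of 1.6e-09.

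Values were tested with limma (3.58.1, R 4.3.3) on log2(value + 1), with a variance trend, in 1 fit of all 10 libraries with 6 group levels (4 residual degrees of freedom). A gene was tested if 2 or more libraries held 10 or more normalised reads of it (17896 genes), and p-values were adjusted by Benjamini-Hochberg over all of them. The fold changes are on this log2(value + 1) scale, which understates changes of low genes. edgeR (4.0.16, quasi-likelihood) and DESeq2 (1.42.0) on the recovered reads were alternatives; all were tested on simulated data. Depth ran from 15966579 gene reads (72 hpa replicate 2) to 58467586 (72 hpa replicate 1) among the 4 libraries compared; 3 reads were taken as the floor, for counting error only. An exact permutation test of 2 libraries against 2 cannot give a two-sided p under 0.333. The share of gene reads, printed for the sarcomere list only, is therefore given by library, untested.

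The genes, members and 39 lists (1442 of 1828 symbols matched) were chosen with earlier results of these data known. Named are genes called with no overlap between groups and a mean of at least 5 CPM in the higher group, up to 2 list members of smallest p, and a panel fixed with the design; MKI67, PAX7 and COL1A1 of that panel are not analysed here. Genes outside these rules were chosen after their values were seen: the genes without a symbol, FUCOLECTIN, CIDEA, KIRREL2, DST, UPK3A, the other keratins, ITGB4-LIKE, ITGA6, PLEC, TP63, FOXN1, ITLN1 and ITLN2, SPDEF, DDC, FOXI1, SLC26A4, the globins, ALAS2, SLC4A1, TAL1, GFI1B, GATA1, KIF11, PLK1, AURKB, CCNA2, CALR, HSP90B1, HSPA5, SNAP25, PTPRC, CD74, LCK, CD3E, TXN, TYR and TYRP1. Symbols other than locus identifiers were given for 12897 genes (48.6%), and RefSeq added names to 1114 of 5466 LOC identifiers.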

Additional observations from a re-analysis of the deposited data

How the results depend on the processing

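The median log2 fold change of all genes lay between -0.02 and 0.01 in the alternatives run, but the counts moved from 7 higher and 6 lower. edgeR with either scaling gave 1 and 1, DESeq2 256 and 283, and the 4 libraries alone 1 and 0. A pseudocount of 0.5 gave 3 higher and one of 10 gave 15 higher. Without a filter 8 were higher and 19 lower, and with a filter of 50 normalised reads 3 and 3 were called. Leaving out 1 library gave 0 to 12 higher and 1 to 48 lower. Of the 13 calls, DESeq2 kept 12, all but LOC100487369, while edgeR kept 2 and the 4 libraries alone 1. The fit without a filter kept 4 of the 13, and that with a filter of 50 normalised reads kept 6. The cause of these differences was not tested. Fits of the 4 libraries alone or with 1 library left out have fewer samples to estimate the spread. Calls rose in some of them and fell in others.

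The labels give the replicate numbers no shared animal or batch. Deviations of same-numbered libraries correlated at -0.13 between 72 and 24 hpa, 0.27 between 24 and 0 hpa and 0.14 between 24 hpa and whole tails; the other 3 pairs of groups lay between -0.10 and -0.0090. With the replicate block, 8 libraries gave 18 higher and 27 lower, and the 4 libraries of 72 and 24 hpa gave 23 and 26. A crossed block over these 4 libraries, added after the data were seen like the 4-library block, gave 0 and 0.

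Directions changed for genes whose groups overlap, when 1 library was left out. TNNC2 ranged from -2.04 to 0.83, MYOD1 from -0.27 to 2.30, HBG2 from -1.06 to 3.14, HOXC13 from -0.32 to 1.095, MNX1 from -0.091 to 0.51, COL2A1 from -0.080 to 0.33, ITGA6 from -0.064 to 0.45, PLEC from -0.079 to 0.41 and TP63 from -0.39 to 0.33. TP63, -0.030 in limma, was 0.0036 with edgeR, 0.0099 with DESeq2 and 0.0073 with edgeR on DESeq2 size factors. The median of genes from outside the tail, 0.14, was -0.047 with edgeR, -0.10 with DESeq2, -0.044 with edgeR on DESeq2 size factors and -0.018 with a pseudocount of 10. Leaving out 1 library moved it between -0.038 and 0.40. Precision is set by 2 libraries a group, and by 15966579 gene reads in the shallowest library.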
